A study of Nomascus leucogenys with 9 samples.

Results

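Cytosolic ribosomal protein genes encode the protein part of the ribosome, the particle that translates messenger RNA. The large (60S) subunit carries the RPL proteins and joins amino acids, and the small (40S) subunit carries the RPS proteins and reads the codons. Cells make these proteins in matched amounts, and growing lymphoid cells devote much of their messenger RNA to them. Their transcripts share a pyrimidine-rich 5′ end through which the TOR pathway controls their translation, and most of the genes have processed pseudogenes, so that short reads can match more than 1 place in a genome.

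The set was chosen as a list of 60 human Ensembl gene identifiers, each paired with a ribosomal protein name, and the rule of the list uses no measured value. It holds 37 large-subunit and 23 small-subunit genes. The deposited table had 55 of them among its 15356 rows (35 of the large and 20 of the small subunit). The identifiers of RPL27 (ENSG00000131469), RPL38 (ENSG00000172809), RPS9 (ENSG00000170889), RPS18 (ENSG00000231500) and RPS25 (ENSG00000118181) were absent and are not analysed here. All 55 passed the filter on low values used below (12590 rows kept). In the RefSeq gene table for the gibbon assembly Asia_NLE_v1, 57 of the 60 names were listed as gene symbols, 4 of the 5 absent genes among them (RPL38 was the exception).

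The study sequenced RNA from lymphocytes of Nomascus leucogenys, the northern white-cheeked gibbon, in work on the LAVA retrotransposon. The sample labels give the cell type as an EBV-transformed (Epstein-Barr virus) lymphocyte cell line. There were 9 lines, each from a different animal, and they form 1 group with no treatment, genotype contrast or age in the labels. Lines 1 to 3 came from Asia, Bobby and China, lines 4 to 6 from Khao, Melouprey and Nancy, and lines 7 to 9 from Phyllis, Ricky and Vok. Each line is 1 animal, 1 transformation and 1 culture, which cannot be told apart here. Whether the cells are B cells was not checked against marker genes. The sources used here do not pair the Ensembl identifiers of the rows with marker symbols.

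Values were used as deposited and taken as normalised log2 expression, although the log base is not stated. On that scale a difference of 1 log2 unit is 2-fold. Columns raised to base 2 summed to between 13728358 (line 9) and 14059842 (line 8), and levels in parts per 1000000 (ppm) or percent refer to those linear totals. Sequencing depth is unknown. Lengths of the transcripts are unknown too, so comparisons are made between lines, and values of different genes, where they stand side by side, are not per length and give no order of expression. Many members had tied values. Within a tolerance of 0.0001, at least 2 lines held the same value in 23 of the 55 ribosomal protein genes (41.8%), against 1.87% of all kept rows and 5.54% of the rows at 100 ppm or more. RPS6 was the clearest case, with values shared in several lines. Its lines read 15.31, 15.37, 15.37, 15.26, 15.31, 15.26, 15.26, 15.37 and 15.12 in order. How the authors' scaling bears on small differences among members was not tested.

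The ribosomal protein genes made up 0.36% of the rows and 6.88% ± 0.39 (SD, n = 9) of the linear total. Of the 100 rows with the highest means, 37 were ribosomal protein genes, and 54 of the 55 lay at 100 ppm or more. In lines 1 to 9 the share was 7.32%, 7.15%, 6.94%, 6.99%, 6.37%, 7.11%, 6.37%, 7.25% and 6.39%, in that order. Lines 5, 7 and 9 formed the low end and did not overlap the other 6 lines. Large-subunit genes held between 4.16% (line 7) and 4.92% (line 1), and small-subunit genes between 2.09% (line 9) and 2.50% (line 2).

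RPL26 (ENSG00000161970) encodes a large-subunit protein near the peptide exit that also binds p53 messenger RNA. Its row ran from 6.14 log2 units in line 3 to 6.58 in line 5 (mean 6.41 ± 0.15, SD, n = 9), or 6.14 ppm. The rows of the other 54 genes had means from 11.76 (RPL34, 250.9 ppm) to 15.93 (RPLP0). These values are not per length, and whether reads of RPL26 were counted under another row was not tested.

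The members' typical spread between lines lay below that of all rows and of abundant rows. Their median SD over the 9 lines was 0.17 log2 units, against 0.22 over all kept rows and 0.20 over rows at 100 ppm or more. Neither class was matched to the members in level or in tied values, and the part of either in the spread was not tested. The median gap between a gene's highest and lowest line was 0.52 log2 units (1.43-fold), against 0.68 (1.60-fold) and 0.62 (1.54-fold) in those classes. It was under 0.5 log2 units in 26 members, and the matching share of all kept rows was not computed. The lines spanned 2-fold or more in 5 members (9.09%), namely RPS16, RPL3, RPL35, RPL6 and RPS13. The background was 26.4% of kept rows and 18.5% of rows at 100 ppm or more, so the members' share lay below both. Without line 9 the count of such members was 2, and without line 1 it was 3. Leaving out a line can only narrow a range, and no background share is given for these omissions. By Dixon's gap criterion for 9 values, 1 line was set apart in 9 members (16.4%), against 10.1% of kept rows. The subunits had a median SD of 0.16 for large-subunit and 0.17 for small-subunit genes.

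**Figure D1:**
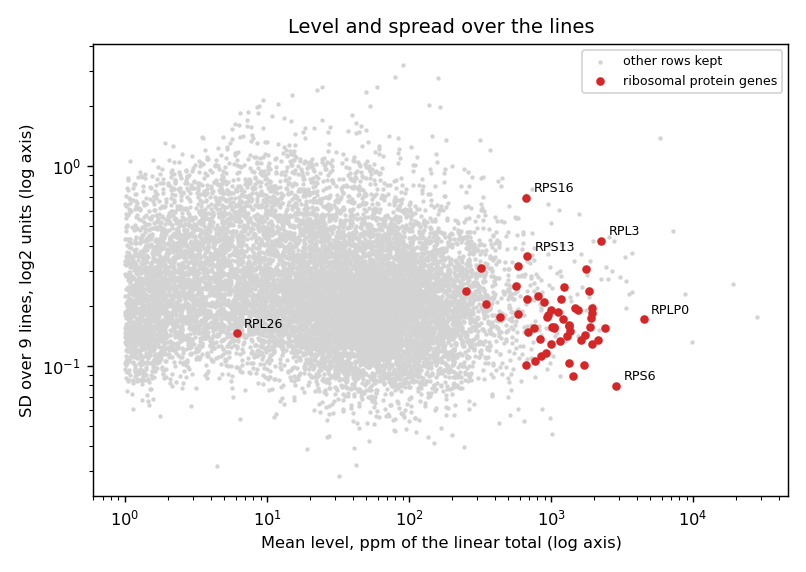
Mean level (horizontal axis, ppm of the linear total, log axis) and SD over the 9 lines (vertical axis, log2 units, log axis) of each kept row; grey points are other rows and red points the 55 ribosomal protein genes. Most red points lie at the abundant end with a small SD, RPL26 lies alone at 6.14 ppm, and RPS16 has the largest SD of the members, 0.70.

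The most even members were RPS6, RPL19, RPL21, RPL27A and RPL4. RPS6 (ENSG00000137154), the small-subunit protein phosphorylated by S6 kinase, spanned 0.25 log2 units. RPL19 (ENSG00000108298), at the exit of the peptide tunnel, had a lowest value of 14.15 in line 1, a median of 14.27 and a highest value of 14.42 in line 7. RPL27A (ENSG00000166441) ran from 13.05 to 13.32 with an SD of 0.10. RPL4 (ENSG00000174444), which lines part of the tunnel, ran from 14.36 in line 5 to 14.64. RPL21 (ENSG00000122026) ran from 14.06 in line 9 to 14.34 in line 8. In these 5 genes the widest separation of any pair of lines was 0.28 log2 units.

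A shared shift of the set was seen in lines 5, 7 and 9. The deviation of a gene is its log2 value in a line minus its median over the lines. In line 7 the median deviation of the 55 members was -0.14 log2 units, with 46 members below their row median and 3 above. In line 5 it was -0.14, with 41 below and 8 above, and in line 9 it was -0.15, with 36 below and 14 above. Over all kept rows the share below the row median was 45.5% in line 5, 43.0% in line 7 and 43.3% in line 9, and the median deviation was 0 in each. In bulk RNA, fewer cells of a type and less RNA per cell cannot be told apart. The remaining lines had member medians between -0.03 (line 3) and 0.07 (line 8).

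These 3 lines were picked after the values were seen, and their counts are a description with no test. Below their row median in all of lines 5, 7 and 9 were 24 members, against 13.4% of kept rows. The single lowest of the 9 lines was line 9 in 22 members, line 5 in 12 and line 7 in 10. The background was 17.1% of kept rows for line 9, 10.7% for line 5 and 8.13% for line 7. At the other end, line 1 was highest in 17 members, line 4 in 10 and line 8 in 8, with backgrounds of 22.6%, 11.3% and 4.17%. Lines 5 and 7 also shared a column maximum of 18.26 log2 units, against 18.66 in the other 7, and line 9 had the smallest linear total. The part of either in the shift was not tested.

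Both subunits took part. In line 7, 29 of 35 large-subunit and 17 of 20 small-subunit genes lay below their row medians, with median deviations of -0.15 and -0.13. In line 5 the counts were 26 of 35 and 15 of 20, with medians of -0.14 and -0.15. In line 9 they were 21 of 35 and 15 of 20, with medians of -0.11 and -0.18. In the other 6 lines the medians lay between -0.03 and 0.07 for the large subunit and between -0.02 and 0.07 for the small subunit.

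**Figure D2:**
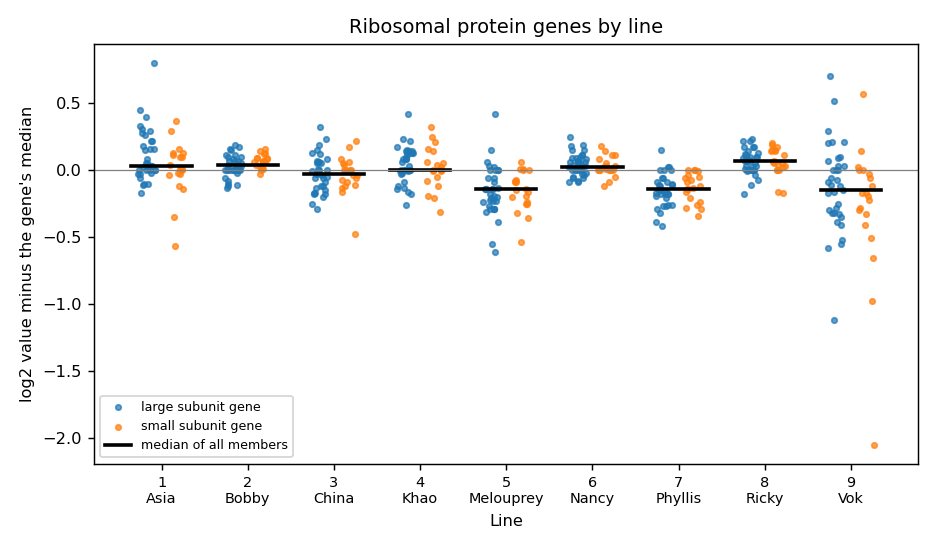
Each point is 1 ribosomal protein gene in 1 line, as its log2 value minus the gene's median over the lines (vertical axis); blue marks large-subunit and orange small-subunit genes, and the black bar is the median of all 55. The bars of lines 5, 7 and 9 lie at -0.14, -0.14 and -0.15, and the points of line 9 spread widest.

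Line 9 differed from lines 5 and 7 in how evenly the genes moved. The members' deviations had an SD of 0.41 log2 units there, against 0.17 for line 5 and 0.11 for line 7. Over rows at 100 ppm or more the same SD was 0.41, 0.27 and 0.21. The ribosomal protein genes of line 1 had an SD of 0.20, against 0.41 over rows of that class. In each line but line 9 the members' SD lay below that of the abundant rows, which were not matched to the members in level.

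Each line was then set against the mean of the other 8 with limma's moderated test over all kept rows, where the lone line is assumed to vary like the others. RPS16 in line 9 was the only call among the 495 pairs of member and line at a Benjamini-Hochberg adjusted p under 0.05. In line 9 the background was 0.0953% of rows called lower and 0.0635% called higher. The test called 0 members in line 1, where it called 1.75% of rows, 0 in line 6 (0.254% of rows) and 0 in line 3 (0.0159%). It called 0 rows (0%) in each of lines 2, 4, 5, 7 and 8, so the shared shift in lines 5 and 7 was not called in any gene. No other tool was run.

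At an unadjusted p under 0.05, line 9 had 12 members lower and 4 higher, against 6.66% and 9.21% of rows. Line 1 had 4 higher and 1 lower, against 10% and 5.73%. Line 5 had 3 lower (RPL6, RPL34 and RPL18), against 0.802%, and line 7 had 1 lower (RPS24), against 0.485%. Line 4 had RPL32 higher and RPSA lower, against 4.35% of rows in either direction. Lines 2, 3, 6 and 8 had 0 members, against 0.349%, 5.18%, 6.03% and 0.492%. In lines 1, 3, 4 and 6 the members' share was thus not above that of all rows.

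RPS16 (ENSG00000105193) encodes a protein of the small-subunit head whose tail reaches the transfer RNA in the P site. Its log2 values in lines 1 to 9 were 13.01, 13.42, 12.88, 13.52, 13.38, 13.47, 13.35, 13.36 and 11.31. Lines 1 and 3 were a little low, and line 9 lay far below all of them with no overlap. The difference of line 9 from the mean of the others was -1.99 log2 units (SE 0.23), a 3.97-fold lower level, with a limma adjusted p of 0.015. The other 8 lines had an SD of 0.23. The adjusted p lay between 0.0085 and 0.049 over the settings and omissions tried.

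RPL3 (ENSG00000100316), a large-subunit protein that reaches toward the peptidyl transferase centre, read 15.31, 15.00, 15.15, 14.86, 14.69, 15.15, 14.86, 15.10 and 13.88 in lines 1 to 9. Line 9 was again lowest, and line 5 was next. The difference was -1.13 log2 units (SE 0.21), with a limma adjusted p of 0.080, which misses the threshold. Over the settings and omissions tried the adjusted p ran from 0.040 to 0.17, and only the omission of line 5 (difference -1.18) passed.

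RPS13 (ENSG00000110700), a protein of the small-subunit body, read 13.38, 13.40, 13.26, 13.44, 12.83, 13.37, 13.11, 13.42 and 12.39. Here lines 9, 5 and 7 were the lowest, in that order. Line 9 stood -0.89 log2 units from the others (SE 0.21, limma adjusted p = 0.13). The adjusted p ran from 0.040 to 0.30 over the settings and omissions tried, and passed only without line 5. RPS3 (ENSG00000149273), which sits at the entry of the messenger RNA channel, lay at 13.44 in line 9, while all other lines held 13.98 to 14.30 (difference -0.67, SE 0.14, limma adjusted p = 0.092).

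Other members at an unadjusted p under 0.05 on the low side of line 9 included RPL22, RPL28, RPL14, RPS15A, RPL11, RPL13 and RPS20. Their differences ran from -0.57 (RPL22) to -0.33 (RPS20), with limma adjusted p from 0.14 to 0.31. RPL22 (ENSG00000116251), known also for its role in lymphocyte development, read 12.94 in line 9 and 13.35 to 13.66 in the others. None of these 7 passed the adjusted threshold.

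In the same line, 4 members lay above the others. RPL23A (ENSG00000198242), which docks factors at the peptide exit, read 14.38, 14.41, 14.23, 14.48, 14.91, 14.53, 14.29, 14.48 and 15.18. Lines 9 and 5 were the highest, although both were on the low side for the set as a whole. The line 9 difference was 0.71 (SE 0.21, limma adjusted p = 0.17). The adjusted p ran from 0.048 to 0.48 over the settings and omissions tried, and passed only without line 5. RPS15 (ENSG00000115268), a protein of the small-subunit head, read 12.75 in line 9 while the others held 12.09 to 12.26, a difference of 0.59 (SE 0.11, limma adjusted p = 0.080). RPL10A lay 0.49 and RPL8 0.32 above the others, with limma adjusted p of 0.19 and 0.24. RPS15 and RPS16, both of the small-subunit head, therefore lay on opposite sides in line 9.

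**Figure D3:**
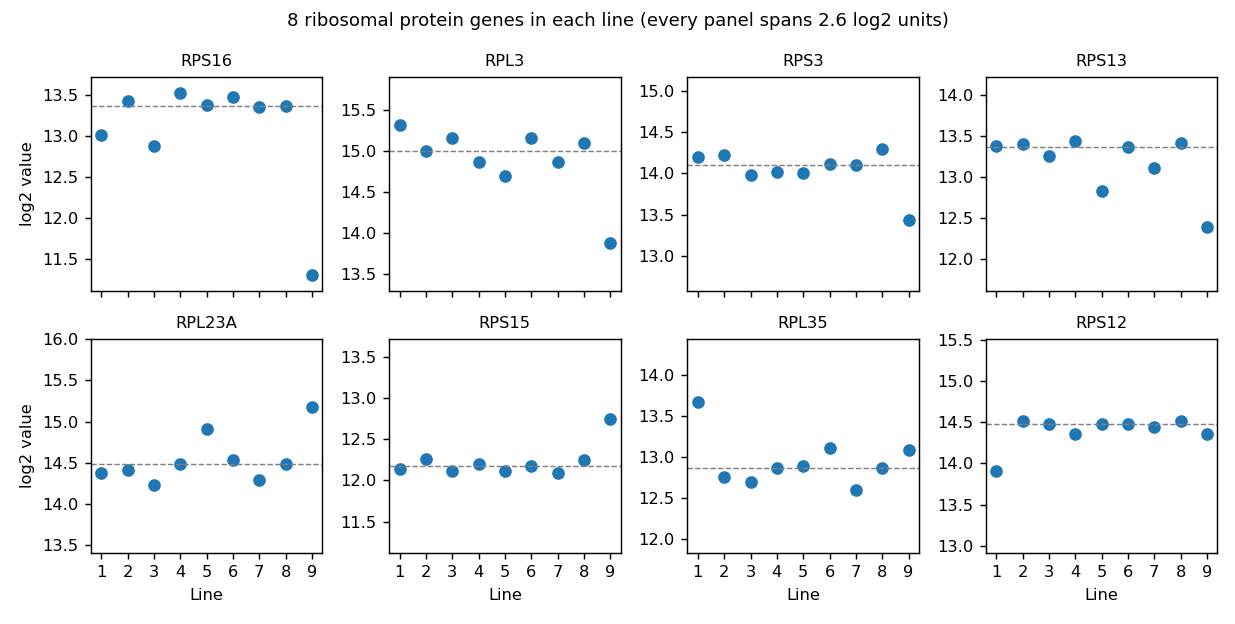
Log2 value (vertical axis) in lines 1 to 9 (horizontal axis) of 8 genes, with a dashed line at each gene's median and the same span of log2 units in every panel. RPS16, RPL3, RPS3 and RPS13 are lowest in line 9, RPL23A and RPS15 highest there, and line 1 is apart in RPL35 (13.67) and RPS12 (13.91).

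In line 1, where no member was called, RPL35 and RPS12 had the smallest adjusted p. RPL35 (ENSG00000136942), at the rim of the peptide exit, read 13.67, 12.76, 12.70, 12.86, 12.89, 13.11, 12.60, 12.87 and 13.08 in lines 1 to 9. No other line reached the level of line 1. The difference was 0.81 log2 units (SE 0.19, limma adjusted p = 0.067). Over the settings and omissions tried the adjusted p ran from 0.037 to 0.27. It passed without line 6 (0.037), without line 9 (0.049) and with no filter on low rows (0.043), and in no other.

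RPS12 (ENSG00000112306), a protein of the small-subunit beak, went the other way. It was 13.91 in line 1, whereas the other 8 lines held 14.36 to 14.52 with an SD of 0.06. The difference was -0.54 (SE 0.12, limma adjusted p = 0.054). Over the settings and omissions tried the adjusted p ran from 0.036 (no filter) to 0.23 (adjusted over all lines together). It passed also without line 9 (0.040) and, narrowly, with columns scaled to the same linear total.

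RPL6 (ENSG00000089009) joined the high end of line 1 to the low end of line 5. Its values in lines 1 to 9 were 12.60, 12.15, 12.34, 11.98, 11.54, 12.18, 11.77, 12.04 and 12.18. Line 1 stood 0.58 above the others (limma adjusted p = 0.31) and the difference of line 5 was -0.61 (limma adjusted p = 0.98). RPL34 (ENSG00000109475) was 11.30 in line 5 and 11.43 in line 7, and 11.72 or more elsewhere. RPL28 (ENSG00000108107) was lowest in line 9 (12.42), followed by line 5 (12.71) and line 7 (12.74), and highest in line 1 (13.22).

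**Figure D4:**
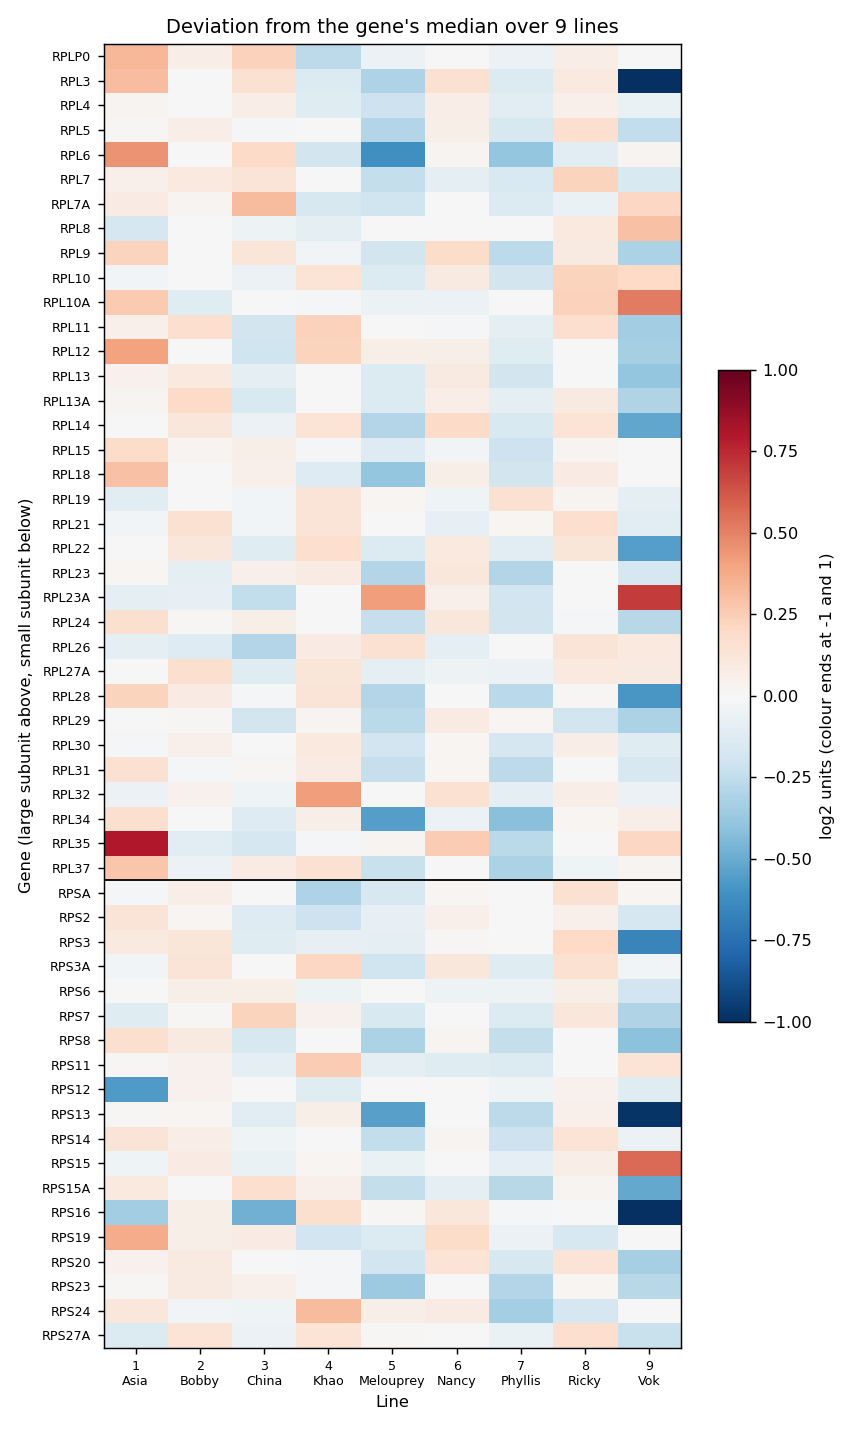
Deviation of 53 of the 55 genes (rows, in the order of the list, large subunit above the black line) from its median over the lines, in lines 1 to 9 (columns); red is higher, blue lower, and the colour ends at -1 and 1 log2 unit. The columns of lines 5 and 7 are mostly pale blue, and that of line 9 mixes deep blue (RPS16, RPL3, RPS13) with red (RPL23A, RPS15).

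The members were also read by role. RPLP0 (ENSG00000089157) is the base of the stalk that recruits elongation factors, and RPL12 (ENSG00000197958) sits beside it. RPLP0 ran from 15.63 in line 4 to 16.22 in line 1 with a median of 15.89 (SD 0.17). RPL12 ran from 13.64 in line 9 to 14.36 in line 1 with a median of 13.97. Line 1 was thus the highest in both, with a difference of 0.43 for RPL12 (limma adjusted p = 0.29).

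RPL5 (ENSG00000122406) and RPL11 (ENSG00000142676) enter the ribosome with the 5S RNA, and when free they bind MDM2 and so stabilise p53. RPL5 ran from 13.59 in line 5 to 14.05 in line 8, and RPL11 from 14.37 in line 9 to 14.95 in line 4. Both genes lay below their medians in lines 7 and 9. RPL23 (ENSG00000125691), another MDM2 binder, ran from 13.61 to 14.01, with lines 5 and 7 lowest. RPL26 is the fourth gene of the group of MDM2 binders read here, which need not hold every binder in the list.

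RPS27A (ENSG00000143947) encodes ubiquitin fused to a small-subunit protein. It ran from 13.76 in line 9 to 14.14 in line 8, with an SD of 0.13. Its deviation in lines 5, 7 and 9 was 0.01, -0.07 and -0.22.

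Of 10 genes of the list mutated in Diamond-Blackfan anaemia, a failure of red cell formation, 9 were measured (RPL27 was absent). RPS19 (ENSG00000105372), the gene most often affected, ran from 12.77 in line 4 to 13.33 in line 1, with a median of 12.96. Line 1 stood 0.40 above the others (limma adjusted p = 0.25). RPS24 (ENSG00000138326) ran from 13.58 in line 7 to 14.24 in line 4. RPS7 (ENSG00000171863) ran from 13.53 in line 9 to 14.05 in line 3. RPL15, RPL18, RPL26 and RPL35 complete the group read here with RPL5 and RPL11. The group need not hold every gene of the list that is mutated in this anaemia. In line 7, 8 of the 9 lay below their row medians, against 46 of all 55 members and 43.0% of kept rows. In line 5 the count was 5, against 41 members and 45.5% of kept rows. For line 9 it was 3, against 36 members and 43.3% of kept rows.

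Small-subunit genes were split by position into head (8 of 10 measured) and body (12 of 13 measured). The head genes had a median SD of 0.19 and included RPS16, and 5, 7 and 6 of the 8 lay below their row medians in lines 5, 7 and 9. The body genes had a median SD of 0.15, and the matching counts were 10, 10 and 9 of 12. Over all 20 small-subunit genes the counts were 15, 17 and 15. The shares of all kept rows were 45.5%, 43.0% and 43.3%. RPSA (ENSG00000168028), a body protein also known as the laminin receptor, ran from 14.58 in line 4 to 15.04 in line 8. RPS2 (ENSG00000140988), at the entry of the messenger RNA channel, ran from 13.47 to 13.81. The genes of the peptide exit rim had a median SD of 0.19, with median deviations of 0.02 in line 5, -0.15 in line 7 and 0.01 in line 9. RPL7 (ENSG00000147604), of the large subunit, ran from 14.80 in line 5 to 15.27 in line 8.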

How the data were processed

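RNA-seq of 9 gibbon lymphoblastoid lines was used as 1 table of normalised values. Per the submitters' processing notes, DESeq2, edgeR, STAR and Trimmomatic were used, in roles and versions not stated. For the build, the annotation and the normalization, the answer is not given in the sources used here. The values deposited by the authors were taken as log2 expression, from 0.71 to 18.66. The log base is not stated, and 0 per-sample columns were left unused. Names of the members came with the list; the RefSeq table (33914 genes) held 0 Ensembl identifiers, so 6 further lists with 109 symbols (translation factors, ribosome biogenesis, RNA polymerase I, mitochondrial ribosome, other ribosomal proteins and paralogs) and the cell type markers were not matched and are not analysed here. The rule of the list uses no measured value, but members and lists were chosen with earlier results of these data known.

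The filter kept rows whose mean reached 1 ppm. Each line was compared with the mean of the others by limma 3.58.1 in R 4.3.3 (trended robust prior, two-sided, Benjamini-Hochberg over all kept rows within the line, threshold 0.05). The fit was run on simulated independent normal values, with shifts of 1 and 2 log2 units in either direction added to 1 line. That run does not bear on smaller shifts or on a lone line that varies more than the others. Named genes were those with the 5 highest and 5 lowest means, the 8 widest and 5 narrowest ranges, called members and role groups; genes at an unadjusted p under 0.05 were added after their values were seen. Other priors, filters, scalings, a pseudocount of 1 and the omission of each line were tried. Single values of 2 members are not reported here, and counts include them.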

Additional observations from a re-analysis of the deposited data

Results flagged for a closer look

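Of 57 sets of 9 values checked (55 members, the median deviation and the share by line), 9 had 1 line set apart from its nearest neighbour by more than Dixon's limit for 9 values, a share of the whole range. All 9 were members (16.4%), against 10.1% of all kept rows. Chance gives about 1 in 20 sets, and members are not independent of each other.

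Line 9 was the single lowest line in 17.1% of all kept rows, but the share of rows with line 9 apart was not computed. Among the flagged members, line 9 was the line apart in 6. It was lowest in RPS16 (11.31 log2 units, next 12.88), RPL3 (13.88, next 14.69), RPL22 (12.94, next 13.35), RPS3 (13.44, next 13.98) and RPS6 (15.12, next 15.26), and highest in RPS15 (12.75, next 12.26). Line 1 was highest in RPL35 (13.67, next 13.11) and lowest in RPS12 (13.91, next 14.36). Line 4 was highest in RPL32 (14.56, next 14.29), where limma gave an adjusted p of 0.96. RPS6 and RPS12 hold values shared by several lines, which bears on their gaps.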

How the results depend on the processing

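The call of RPS16 in line 9 was kept in all settings and omissions run, with differences between -2.05 and -1.96. Its lone line is assumed to vary like the others. The number of members called in line 1 was 0, but 2 with no filter on low rows (RPS12 and RPL35), 1 with columns scaled to the same linear total (RPS12), and between 0 and 2 when another line was left out. In line 9 it was between 1 and 4 (4 without line 5). In lines 2 to 8 it stayed between 0 and 0 under every setting and omission. The number of members spanning at least 2-fold lay between 2 and 5 with a line left out, an omission that cannot raise it. The median SD lay between 0.14 and 0.18. Median deviations with another line left out lay between 0.02 and 0.07 in line 1, 0.03 and 0.07 in line 2, -0.04 and -0.01 in line 3, 0 and 0.05 in line 4, -0.17 and -0.13 in line 5, 0.02 and 0.05 in line 6, -0.16 and -0.11 in line 7, 0.05 and 0.08 in line 8, and -0.16 and -0.11 in line 9. With the mean of the other lines as reference they were 0.08, 0.09, -0.02, 0.08, -0.16, 0.08, -0.15, 0.11 and -0.13 in lines 1 to 9. The causes of these changes were not tested. No paired analysis was possible because the 9 lines form a single group. With the depth unknown, counting error could not be separated from the spread between lines.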
